A study of Mus musculus with 6 samples.

Results

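Proteasome transcripts were read from Affymetrix arrays of whole lenses from Balb/c mice aged 2 days, with 3 arrays for transgenic animals and 3 for their wild-type counterparts. The transgene and the promoter that drives it are not named in the labels. Each genotype contributed 12 lenses, divided in an unstated way, so whether the replicates are different animals is unknown and the p-values below cover array-to-array spread that may be technical. Genes were taken whose single symbol begins with Psm, one of the letters a to g, and a digit. That gave 49 of 18193 measured genes, of which 47 encode subunits, activators, an inhibitor or assembly factors of the proteasome. The remaining pair, Psmc3ip, a meiotic recombination factor, and Psme3ip1, a partner of the Psme3 protein, match by symbol alone. Psme2 was not measured as a single gene. Its only probe set is shared with Psme2b and is given below.

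The proteasome degrades proteins that carry ubiquitin chains. Its 20S core is a barrel of outer rings of alpha subunits, which gate the channel, and inner rings of beta subunits, of which Psmb5, Psmb6 and Psmb7 carry the active sites. The 19S cap adds a ring of ATPases (Psmc genes) that unfold substrates and non-ATPase subunits (Psmd genes) that bind and remove ubiquitin. In immune cells and under interferon the subunits encoded by Psmb8, Psmb9 and Psmb10 take the places of Psmb5, Psmb6 and Psmb7 to form the immunoproteasome. In the lens the ubiquitin and proteasome pathway is known to act in epithelial cells and in differentiating fiber cells.

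The identity of the samples was checked on lens genes. Foxe3, a transcription factor gene of the lens epithelium, averaged 13.38 ± 0.04 in transgenic and 8.74 ± 0.17 in wild-type arrays (mean ± SD of log2 values, n = 3 each). Each of the 12 measured genes of a lens list, crystallins among them, had a mean of at least 10.88 over the 6 arrays, and their summed linear level was 145400 to 153300 in transgenic and 149700 to 153300 in wild-type lenses. Among them Foxe3 rose by 4.64 (SE 0.10; limma adjusted p = 2.07e-06) and Bfsp1, a fiber cell filament gene, fell by 1.66 (limma adjusted p = 0.000406). Foxe3 is part of the summed level and adds more to it in transgenic arrays. The similar sums therefore do not show that the other lens genes were level. Transcripts of other tissues differed between arrays. The summed linear level of 10 skin and cornea genes was 30270 in transgenic replicate 3 (T3), against 1982 and 1777 in T1 and T2 and 1768 to 2863 in the wild-type arrays (W1 to W3), and 9 muscle genes reached 9240 in T3 and at most 569.3 elsewhere. Of 12 measured neural retina genes 11 were below 0 in the difference of transgenic minus wild type, beside 47.7% of all genes. Their summed levels were 1786, 2876 and 2232 in T1 to T3 and 3634, 3240 and 2602 in W1 to W3. Elavl4 (-0.72) and Sncg (-0.84) among them fell (limma adjusted p = 0.0117 and 0.0331), where 2.61% of all genes were called lower. With 1 array left out the adjusted p reached 0.0604 for Elavl4, without W2, and 0.109 for Sncg, whose call held only without T2. Both calls were lost with the replicate number as a block (limma adjusted p = 0.0563 and 0.082). Of 7 endothelial genes Tek, an endothelial receptor gene, was the one called, with a rise of 0.49 (limma adjusted p = 0.0465). Among all genes 1.93% were called higher. The Tek call held only without T3 when 1 array was left out. It was also lost with values as deposited (limma adjusted p = 0.0742) and with arrays shifted to a common median (0.109). With the replicate number as a block its adjusted p was 0.0827, and with the second brightest probe sets 0.0529. The summed level of the endothelial genes was 902.3 to 1074 in transgenic and 874.8 to 1133 in wild-type arrays. The 6 pigment cell genes had their highest summed level, 4882, in T2. The part of these transcripts in the differences below was not tested, and in whole lenses fewer cells of a type and less RNA per cell cannot be told apart.

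Most proteasome transcripts differed little between the genotypes, and a single one passed the test. Psmg1, which encodes a chaperone that helps to assemble the alpha ring, fell by 0.40 on the log2 scale in transgenic lenses (SE 0.084, n = 3 each; limma adjusted p = 0.0402). The other 48 genes did not pass. Over all genes tested 2.61% were called lower and 1.93% higher (limma, adjusted p under 0.05), 4.55% in either direction, so 1 call among 49 genes, 0 of them higher, is no more than the background. At an unadjusted p under 0.05, 10 of the 49 were lower and 1 was higher, beside 10.9% and 11.5% of all genes. The sign of the differences was less even: 36 of the 49 were below 0, beside 47.7% of all genes, with a median difference of -0.096 against 0.011 over all genes. In 15 genes every transgenic array lay below every wild-type array, where 13.5% of all genes did so, and in 4 genes every transgenic array lay above, beside 15.3% of all genes. Standard errors of the 49 differences ran from 0.076 to 0.21, with a median of 0.090.

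**Figure D1:**
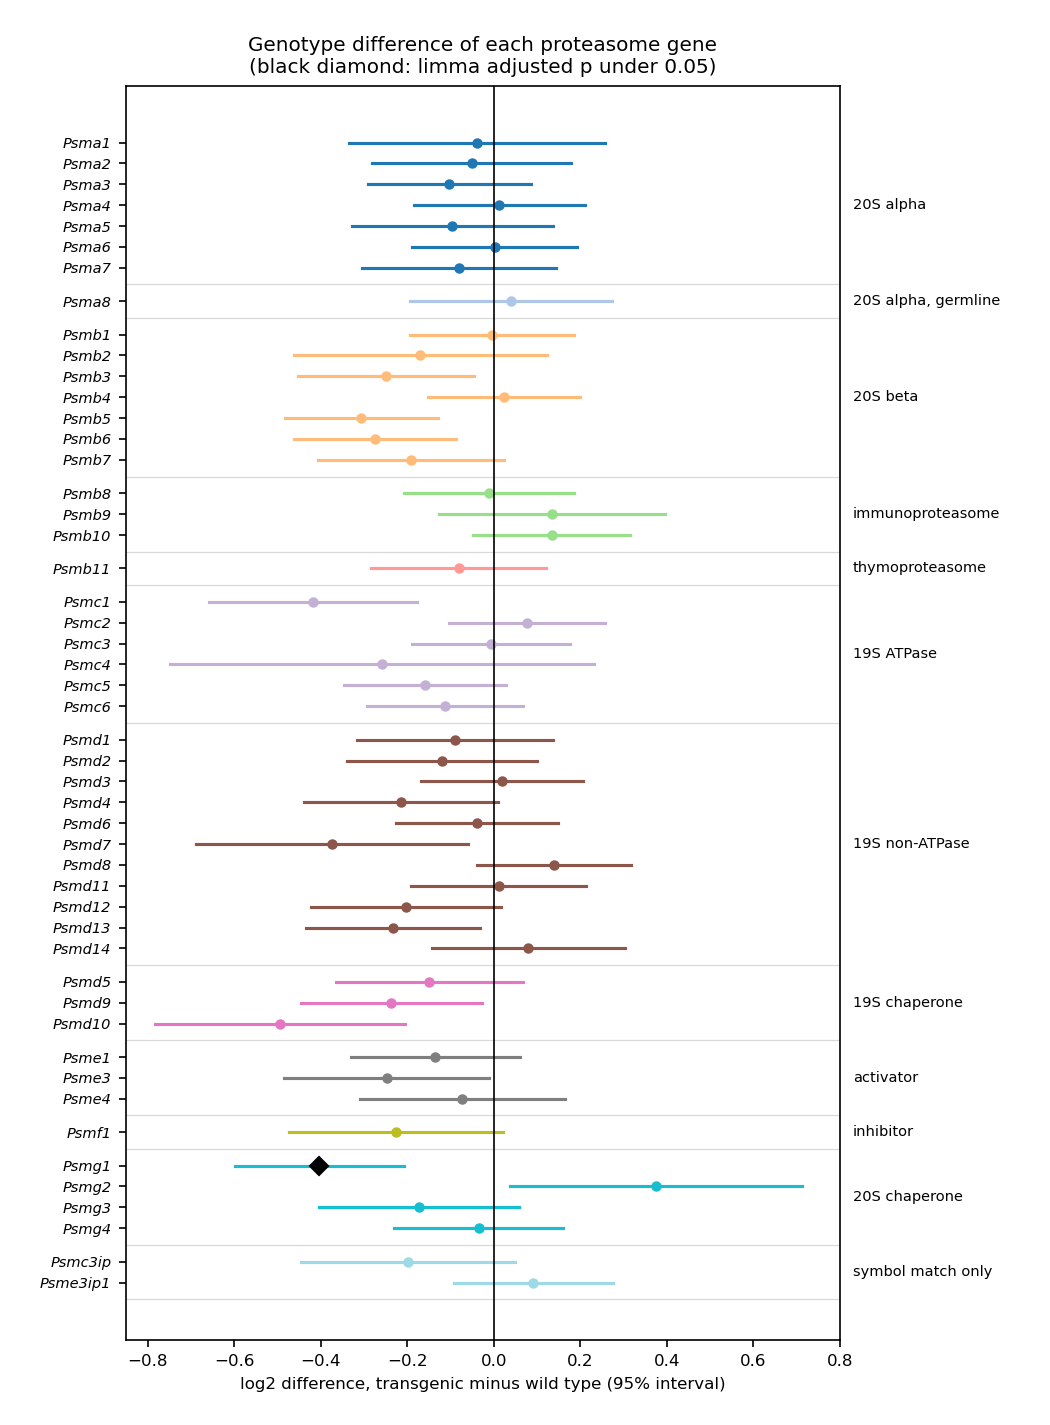
Log2 difference of transgenic minus wild type (horizontal axis) for each of the 49 genes, by role, with its 95% interval from limma, not adjusted for the number of genes. Psmg1, the black diamond at -0.40, passed the test over all genes. Psmb5, Psmb6, Psmc1 and Psmd10 are among the genes with intervals below 0 that did not pass, and the 20S alpha genes sit close to 0.

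The genes of the 20S alpha ring differed little, and none passed. All 7 constitutive alpha genes had overlapping groups, 5 were below 0 and 2 above, and their median difference was -0.052. Psma3 had the largest of these differences, -0.10 ± 0.081 (SE; limma adjusted p = 0.495). It measured 11.06, 11.02 and 11.14 in T1 to T3, against 11.22, 11.12 and 11.19 in W1 to W3 (log2 values, as for all array values below). The T3 value lay above that of W2. Psma5 differed by -0.096, Psma7 by -0.081, Psma2 by -0.052, Psma1 by -0.039, Psma4 by 0.013 and Psma6 by 0.0019. The 95% intervals of the 7 genes together spanned -0.34 to 0.26. Psma8, the alpha subunit of germ cells, averaged 4.77 in transgenic and 4.73 in wild-type arrays, under the median of all probe sets, 5.341, where background limits what can be seen.

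Among the beta subunits, the genes of the 3 active sites were all below 0, with a median difference of -0.27, although none passed. Psmb5, which encodes the chymotrypsin-like subunit, measured 11.38, 11.38 and 11.39 in the transgenic arrays, against 11.74, 11.65 and 11.68 in the wild-type arrays. The groups were apart by more than either group's spread, with a difference of -0.31 ± 0.076 (SE), and it missed the threshold (limma adjusted p = 0.0675). Psmb6, for the caspase-like subunit, gave 11.25, 11.10 and 11.19 in transgenic and 11.48, 11.44 and 11.44 in wild-type lenses, again without overlap. Its difference was -0.27 ± 0.081 (limma adjusted p = 0.101). Psmb7, for the trypsin-like subunit, gave 11.85, 11.68 and 11.65 in transgenic and 12.00, 11.83 and 11.93 in wild-type lenses, where T1 lay above W2. It differed by -0.19 (limma adjusted p = 0.269). These differences correspond to levels of 0.81, 0.83 and 0.88 times those of wild-type lenses.

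The beta subunits without active sites were mixed. Psmb3 gave 10.63, 10.63 and 10.78 in transgenic and 10.85, 10.94 and 10.998 in wild-type lenses, which did not overlap, and differed by -0.25 (limma adjusted p = 0.149). Psmb2 differed by -0.17, Psmb1 by -0.0041 and Psmb4 by 0.024, each with overlapping groups. Over the 7 constitutive beta genes the median difference was -0.19, and 6 of 7 were below 0. That order of the classes, with beta below alpha, is a description: a difference between classes was not tested.

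**Figure D2:**
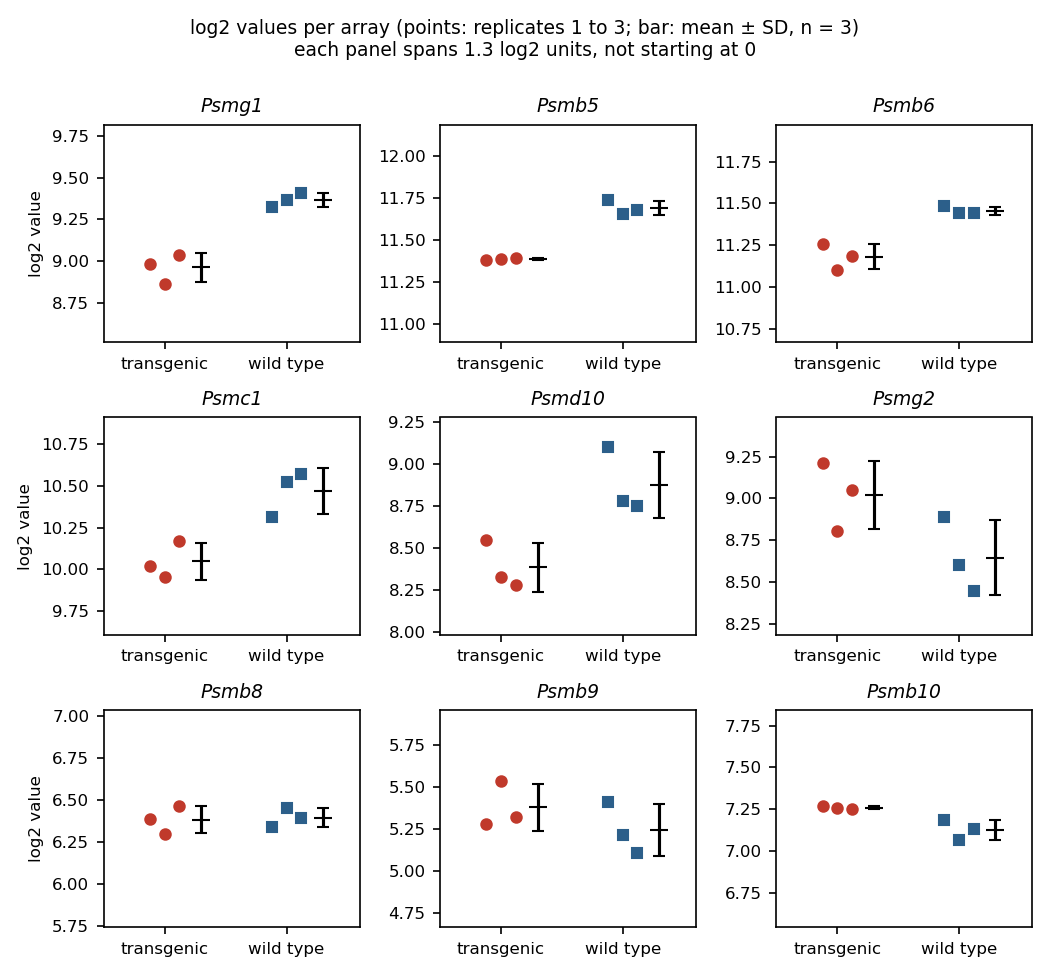
Log2 values (vertical axis) of 9 genes on each array, transgenic as circles and wild type as squares, with the mean and SD of each group of 3. Psmg1, Psmb5, Psmb6, Psmc1 and Psmd10 have no overlap between the groups, while the groups of Psmb8, Psmb9 and Psmg2 overlap.

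The 3 immunoproteasome genes had differences from -0.011 to 0.13, and none passed. Whether they differed from those of the subunits they replace was not tested. Psmb10 measured 7.27, 7.26 and 7.25 in transgenic and 7.19, 7.07 and 7.13 in wild-type lenses. All transgenic arrays lay above all wild-type arrays, with a difference of 0.13 ± 0.078 (SE) that did not pass (limma adjusted p = 0.355). Psmb9 gave 5.28, 5.54 and 5.32 in transgenic and 5.41, 5.21 and 5.11 in wild-type lenses, near the median of all probe sets, and differed by 0.13 with overlap. Psmb8 gave 6.39, 6.30 and 6.46 in transgenic and 6.34, 6.45 and 6.39 in wild-type lenses, a difference of -0.011 with a 95% interval of -0.21 to 0.19. Psmb11, the thymic subunit in the same position, averaged 4.02 in transgenic and 4.10 in wild-type arrays, below the arrays' lower quartile of about 4.18.

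Antigen presentation genes that are often induced together with the immunoproteasome were read out beside it. In the RefSeq gene order Tap1 lies between Psmb9 and Psmb8, and Tap2 follows Psmb8. Of 18 measured genes of antigen processing and the interferon response, 2 rose and 16 did not pass, with a median difference of -0.032. Over all genes 1.93% were called higher. The risers were class I heavy chain genes. H2-K1 measured 7.44, 7.52 and 7.58 in transgenic and 7.01, 6.34 and 6.55 in wild-type lenses, a rise of 0.88 ± 0.16 (SE; limma adjusted p = 0.0284). H2-D1 measured 7.18, 7.24 and 7.64 in transgenic and 6.64, 6.56 and 6.64 in wild-type lenses, a rise of 0.74 ± 0.13 (limma adjusted p = 0.0229). Both rest on probe sets of a type that can bind related transcripts. The second brightest probe set of H2-K1 differed by 0.28 and that of H2-D1 by 0.49, and neither call was kept there or with every probe set of the gene averaged. The next H2-D1 probe set in brightness, which is not of that type, differed by -0.27 with overlapping groups. The remaining H2-D1 probe sets above the median level, all of that type, differed by 0.53, 0.44 and 0.27. When every probe set was tested on its own, the one at 0.44 passed (limma adjusted p = 0.0382). Those at 0.53 and 0.27 did not (0.0550 and 0.535). The H2-K1 call was also lost with arrays shifted to a common median (0.80, limma adjusted p = 0.0573), and both were lost with the replicate block (0.0794 and 0.0630). With 1 array left out the adjusted p reached 0.102 for H2-K1 and 0.0907 for H2-D1. B2m, the light chain gene, differed by 0.81 (limma adjusted p = 0.0710), and Ifit3, an interferon-induced gene, by -0.39 (limma adjusted p = 0.118). A second B2m probe set differed by 0.67, again with all transgenic arrays higher. With 1 array left out the limma adjusted p of B2m ran from 0.0184 to 0.171. The peptide transporter genes Tap1 and Tap2, named for their place beside Psmb8, differed by -0.079 and -0.19. Immune cell genes showed no common direction, with 6 of 13 below 0, none called and summed linear levels of 1115 to 1317 in transgenic and 972.8 to 1367 in wild-type lenses.

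**Figure D3:**
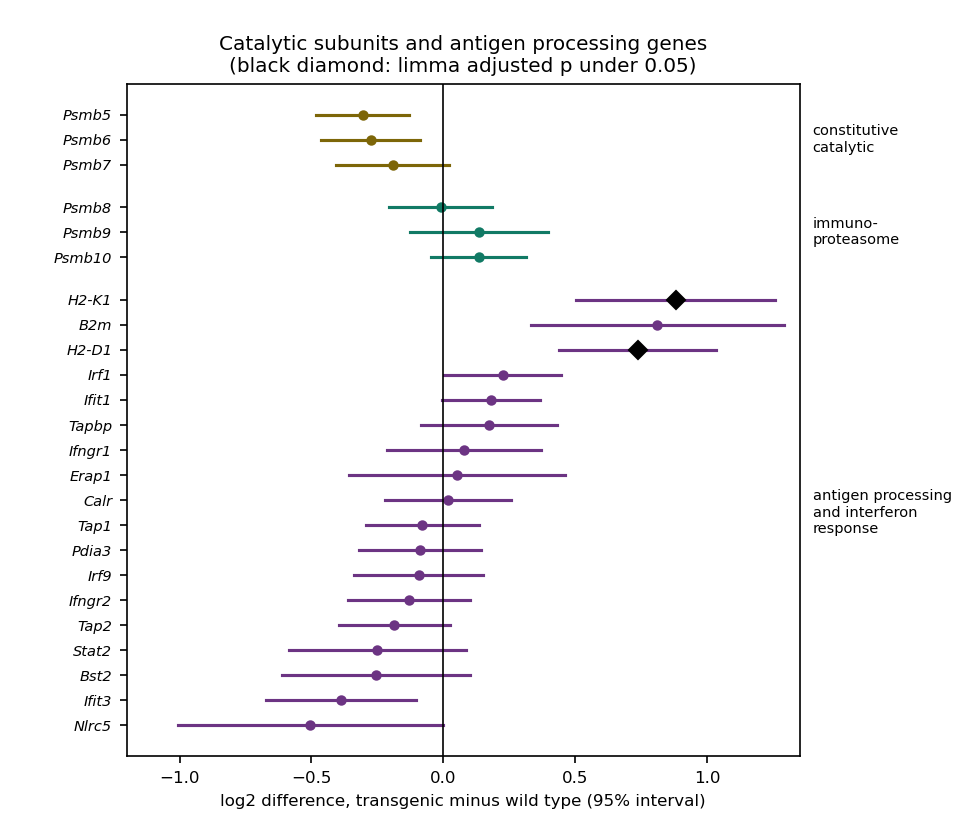
Log2 difference of transgenic minus wild type with its 95% interval for the 3 constitutive catalytic genes, the 3 immunoproteasome genes and 18 genes of antigen processing and the interferon response. H2-K1 at 0.88 and H2-D1 at 0.74 passed the test, and the immunoproteasome genes lie between -0.011 and 0.13.

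In the 19S cap the ATPase genes had a median difference of -0.14, with 5 of 6 below 0 and none called. Psmc1, whose product helps to open the gate of the core, measured 10.02, 9.96 and 10.17 in transgenic and 10.31, 10.52 and 10.57 in wild-type lenses. The groups did not overlap, and the difference of -0.42 ± 0.10 (SE) missed the threshold (limma adjusted p = 0.0675). Its second probe set lay at 3.42 and 3.30 in the means of transgenic and wild-type lenses, too dim to check the first. Psmc4 differed by -0.26 with the widest interval of all 49 genes, -0.75 to 0.23. T1 stood at 11.31 there, above all wild-type arrays (11.17, 10.91 and 11.03), while T2 and T3 stood at 10.55 and 10.49, below them. A second Psmc4 probe set gave 10.46, 10.44 and 10.51 in transgenic and 10.50, 10.69 and 10.66 in wild-type lenses, without the high T1 value, and differed by -0.14. Psmc5 differed by -0.16 and Psmc6 by -0.11, both without overlap, Psmc3 by -0.0065 and Psmc2 by 0.077. Another Psmc6 probe set above the median level differed by 0.18 with overlapping groups.

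Of 11 non-ATPase subunits of the cap, 7 were below 0 and 4 above, with a median of -0.090 and none called. Psmd7, the partner of the deubiquitinase subunit, measured 8.99, 8.47 and 8.73 in transgenic and 9.19, 9.03 and 9.09 in wild-type lenses. The transgenic arrays spread widely and all lay lower, for a difference of -0.37 ± 0.14 (SE; limma adjusted p = 0.160). Its other probe sets lay below the median of all probe sets. Psmd14, which encodes the deubiquitinase itself, differed by 0.080 with overlapping groups. Psmd4, a ubiquitin receptor, differed by -0.21, but another of its probe sets, at 7.09 and 6.86 in the means of transgenic and wild-type lenses, differed by 0.23. Psmd13 differed by -0.23 and Psmd12 by -0.20, while a second Psmd13 probe set differed by -0.015. The large scaffold subunits encoded by Psmd1 and Psmd2 differed by -0.090 and -0.12. Psmd8 went the other way, at 11.13, 11.15 and 11.18 in transgenic and 10.99, 11.06 and 10.99 in wild-type lenses, a difference of 0.14 ± 0.077 (limma adjusted p = 0.329). Psmd6 (-0.039), Psmd3 (0.019) and Psmd11 (0.011) were within 0.04 of 0. The 4 other Psmd11 probe sets above the median level differed, in order of brightness, by -0.080, -0.00032, -0.24 and 0.12.

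The genes of assembly factors held both the call and the gene farthest from 0. Psmg1 measured 8.98, 8.87 and 9.04 in transgenic lenses, against 9.32, 9.37 and 9.41 in wild-type lenses. Every transgenic array was lower than every wild-type array, and the transgenic level was 0.76 times that of wild type. The gene has a single probe set. Its call was lost whichever of the 6 arrays was left out (limma adjusted p from 0.0585 without T3 to 0.138 without T2), while the difference stayed between -0.44 and -0.35. It was also lost with the replicate number as a block (limma adjusted p = 0.102), and kept in the other 7 settings tried. Among these, the settings with dim probe sets left out, probe sets averaged or the second brightest taken reused the same Psmg1 values. Psmg2, whose product pairs with that of Psmg1, measured 9.21, 8.80 and 9.05 in transgenic and 8.89, 8.60 and 8.45 in wild-type lenses. T2 lay below W1, and the difference of 0.38 ± 0.15 (SE) did not pass (limma adjusted p = 0.184). A second Psmg2 probe set differed by 0.20. Psmg3 and Psmg4, the other pair of core chaperones, differed by -0.17 and -0.035.

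Chaperones of the 19S base were all 3 below 0. Psmd10, also known as gankyrin, measured 8.55, 8.32 and 8.28 in transgenic and 9.10, 8.78 and 8.75 in wild-type lenses. It had the largest difference of the 49 genes, -0.49 ± 0.12 (SE), without overlap, and missed the threshold (limma adjusted p = 0.0696). Psmd9 differed by -0.24 without overlap and Psmd5 by -0.15. A second Psmd9 probe set differed by 0.13. Among regulators of the core, the activator genes Psme1 (-0.14) and Psme3 (-0.25, limma adjusted p = 0.208) did not overlap between the groups, and Psme4 (-0.073) and the inhibitor gene Psmf1 (-0.23) did. The probe set shared by Psme2 and Psme2b measured 9.14, 9.17 and 9.42 in transgenic and 9.39, 9.22 and 9.12 in wild-type lenses, a difference of -0.0039. The symbol matches Psmc3ip and Psme3ip1 differed by -0.20 and 0.091.

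**Figure D4:**
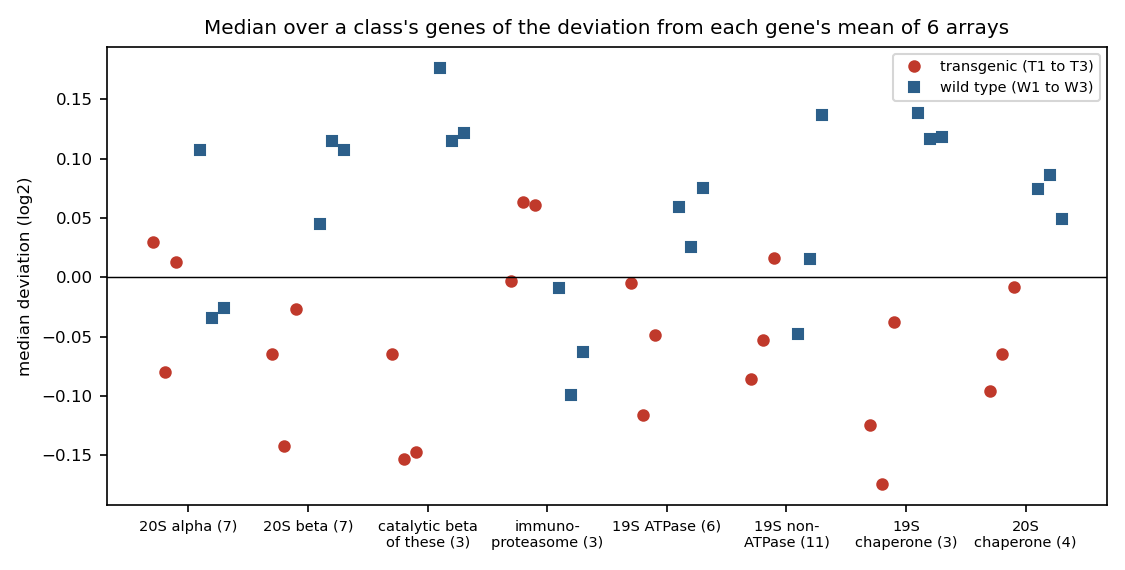
For each class and array, the median over the class of the deviation of a gene's log2 value from its mean over 6 arrays (vertical axis), with transgenic arrays as circles left of wild-type arrays as squares and the number of genes in brackets. The 3 catalytic beta genes lie at -0.15 to -0.064 in transgenic and 0.12 to 0.18 in wild-type arrays, while the 20S alpha and 19S non-ATPase groups overlap.

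Read array by array, the median over a class kept the genotypes apart in some classes and not in others. How often medians of other sets of genes do so was not computed. The median deviation of the 3 catalytic beta genes from the mean of 6 arrays was -0.064, -0.15 and -0.15 in T1 to T3 and 0.18, 0.12 and 0.12 in W1 to W3. For the 20S alpha genes the values were 0.030, -0.080 and 0.013 in transgenic and 0.11, -0.034 and -0.026 in wild-type arrays, which overlap, as do those of the 19S non-ATPase genes. The class medians of all 20S beta genes, the 19S ATPases, both sets of chaperones and the activators did not overlap, with transgenic lower. Those of the immunoproteasome were -0.0030, 0.063 and 0.061 in transgenic and -0.0090, -0.099 and -0.063 in wild-type arrays. They did not overlap, with transgenic higher, but T1 and W1 nearly met. For the 19S ATPases the medians were -0.0052, -0.12 and -0.049 in transgenic and 0.060, 0.025 and 0.076 in wild-type arrays. Single genes of these classes, such as Psmb7, do overlap. Over all 49 genes they were -0.038, -0.073 and 0.010 in transgenic and 0.054, 0.034 and 0.062 in wild-type arrays. T3, the array with skin and muscle transcripts, was the transgenic array nearest to wild type. Without T1, T2 or T3 in turn, 35, 32 and 39 of the 49 genes were below 0, with medians of -0.092, -0.090 and -0.11. Without W1, W2 or W3 the counts were 36, 38 and 35, and with the second brightest probe set 34. Whether the skin and muscle transcripts of T3 bear on this was not tested. The scale of these shifts depended on normalization. When the deposited arrays were instead shifted to a common median, 42 of 49 genes were below 0 with a median of -0.17, against -0.035 for all genes.

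The sequence before the start site is shown for the gene that passed, for the 4 next in order of p (Psmc1, Psmb5, Psmd10 and Psmb6) and for Psmb8, the immunoproteasome counterpart of Psmb5. Each is the 250 bases upstream of the RefSeq start on GRCm38.p6, 5′ to 3′ on the gene's strand. They are chr16:95990961-95991210 (minus strand) for Psmg1, chr14:54617996-54618245 (minus) for Psmb5, chr11:70525107-70525356 (plus) for Psmb6, chr12:100109952-100110201 (plus) for Psmc1, chrX:140956712-140956961 (minus) for Psmd10 and chr17:34197945-34198194 (plus) for Psmb8. Capitals mark matches to 4 motifs searched on both strands, namely the antioxidant response core TGACNNNGC, read by NFE2L1 and NFE2L2, the CCAAT box, the interferon-stimulated core (GAAA, any 2 bases, GAAA) and the gamma-interferon activated sequence TTCNNNGAA.
Psmg1: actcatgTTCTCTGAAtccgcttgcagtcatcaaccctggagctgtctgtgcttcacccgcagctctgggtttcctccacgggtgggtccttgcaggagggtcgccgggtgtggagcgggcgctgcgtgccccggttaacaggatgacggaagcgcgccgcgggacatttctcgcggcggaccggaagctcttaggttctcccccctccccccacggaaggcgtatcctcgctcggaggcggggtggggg
Psmb5: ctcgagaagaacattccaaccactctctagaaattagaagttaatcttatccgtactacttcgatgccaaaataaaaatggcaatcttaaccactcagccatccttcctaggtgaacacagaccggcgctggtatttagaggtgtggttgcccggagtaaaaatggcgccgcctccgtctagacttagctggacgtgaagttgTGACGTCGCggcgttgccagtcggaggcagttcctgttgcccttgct
Psmb6: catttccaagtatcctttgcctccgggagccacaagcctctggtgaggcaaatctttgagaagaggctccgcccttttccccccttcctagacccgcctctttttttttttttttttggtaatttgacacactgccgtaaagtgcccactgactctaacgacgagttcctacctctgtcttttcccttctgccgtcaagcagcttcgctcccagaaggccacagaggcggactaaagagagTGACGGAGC
Psmc1: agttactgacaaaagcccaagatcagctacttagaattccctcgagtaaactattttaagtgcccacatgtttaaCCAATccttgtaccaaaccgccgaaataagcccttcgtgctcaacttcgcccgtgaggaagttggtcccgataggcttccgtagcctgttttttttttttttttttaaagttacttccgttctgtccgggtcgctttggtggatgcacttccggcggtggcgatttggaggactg
Psmd10: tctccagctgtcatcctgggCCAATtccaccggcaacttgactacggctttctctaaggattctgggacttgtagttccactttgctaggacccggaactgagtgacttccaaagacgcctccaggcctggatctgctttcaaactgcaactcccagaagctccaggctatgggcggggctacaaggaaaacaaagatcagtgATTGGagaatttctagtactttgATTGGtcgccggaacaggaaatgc
Psmb8: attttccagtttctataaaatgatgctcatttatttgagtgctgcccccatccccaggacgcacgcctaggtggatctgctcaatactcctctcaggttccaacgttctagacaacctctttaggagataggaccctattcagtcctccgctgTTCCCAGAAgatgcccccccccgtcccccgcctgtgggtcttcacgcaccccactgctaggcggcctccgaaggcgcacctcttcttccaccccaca

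Psmb5 holds the antioxidant response core 47 to 39 bases and Psmb6 9 to 1 bases upstream of the start. Across genes with a window, 5 of 41 genes of the symbol rule held it (Psmb5, Psmb6, Psmc6, Psmd9 and Psmd12), 12.2%, beside 10.2% of all 32851 windows of this length. A gene was counted if any of its windows matched, so the units differ. Counted by window, 5 of the 44 windows of the 41 genes held it. The differences of those 5 genes ran from -0.31 to -0.11, where 36 of the 49 genes were below 0. Those of genes with a CCAAT box ran from -0.49 (Psmd10) to 0.13 (Psmb9). Those of genes with the interferon-stimulated core ran from -0.25 (Psmb3) to -0.21 (Psmd4). A link between motif and difference was not tested. A CCAAT box stood in 16 of the 41 genes, beside 33.8% of all windows, once in Psmc1 and 3 times in Psmd10. The gamma-interferon sequence was matched in Psmg1 and Psmb8, 2 of 41 genes, beside 7.02% of all windows, and the interferon-stimulated core in Psmb3, Psmd4 and Psmd9, beside 2.98%. By window, the CCAAT box, the gamma-interferon sequence and the interferon-stimulated core stood in 16, 2 and 3 of the 44. The matches are letters in a window and do not show binding. No overlap between motifs was found in the printed sequences.

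Genes that control or accompany the proteasome gave 1 further call. Of 16 measured partners, among them non-Psm subunits, ubiquitin shuttles and the core maturation factor Pomp, Zfand5 fell and 15 did not pass. Over all genes 2.61% were called lower. Zfand5 encodes a zinc finger protein that binds the 19S cap and stimulates degradation. It measured 11.09, 11.05 and 11.06 in transgenic and 11.80, 12.02 and 11.98 in wild-type lenses, a difference of -0.87 ± 0.089 (SE; limma adjusted p = 0.00249), which is a level 0.55 times that of wild type. The call was kept with any 1 array left out (limma adjusted p at most 0.0197). Of its 6 other probe sets all were below 0 and the second brightest differed by -0.15 only, while the next in brightness differed by -0.98 and -1.12. Usp14, a deubiquitinase of the cap, differed by 0.55 (limma adjusted p = 0.0937), Ecpas, a proteasome adaptor gene, by -0.30, and Zfand2a by 0.27. The small cap subunit gene Sem1 and Pomp, named for their roles after their values were seen, differed by -0.19 and -0.029. Without T3, Usp14 passed upward (limma adjusted p = 0.0228), while over all single omissions its adjusted p reached 0.242. Its brightest probe set is of a type that can bind related transcripts. The next Usp14 probe set in brightness differed by 0.19 with overlapping groups, and the one after it by 0.31 without overlap. Among 12 measured regulators of proteasome genes none passed. Nfe2l1, which encodes the transcription factor that restores proteasome synthesis when activity is low, differed by 0.32 (limma adjusted p = 0.117), with 9.25, 9.12 and 9.11 in transgenic and 8.68, 8.91 and 8.94 in wild-type lenses, which do not overlap. Its DNA-binding partner gene Mafk differed by 0.39, the cytokine signalling gene Stat3 by 0.32 and Keap1, whose product holds back NFE2L2, by 0.23. Of 6 listed genes for ubiquitin and its activating enzymes only Uba6 was measured as a single gene, and it differed by 0.27 (limma adjusted p = 0.200).

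Agreement between probe sets bounds how far these small differences can be read. The 49 genes had 103 probe sets, of which 1, that of Psmg1, passed when every probe set was tested on its own (3.68% of all 45037 probe sets passed). In 22 genes there was a single probe set, Psmb5, Psmb6, Psmb7, Psmb9, Psmb10, Psmd10 and Psmg1 among them. In 19 genes a further probe set lay above the median level, 28 in all. Of these 28, 17 had the sign of the brightest probe set of their gene and 11 the opposite sign, and 20 were below 0. Both probe sets of Psmb3 differed by -0.25 and -0.44. In Psmc2 the brightest, of a type that can bind related transcripts, differed by 0.077 and the next by -0.19. Psma6, Psmb1, Psmb4, Psmc6, Psmd4, Psmd9, Psmd11 and Psmd13 were also split in sign.

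**Figure D5:**
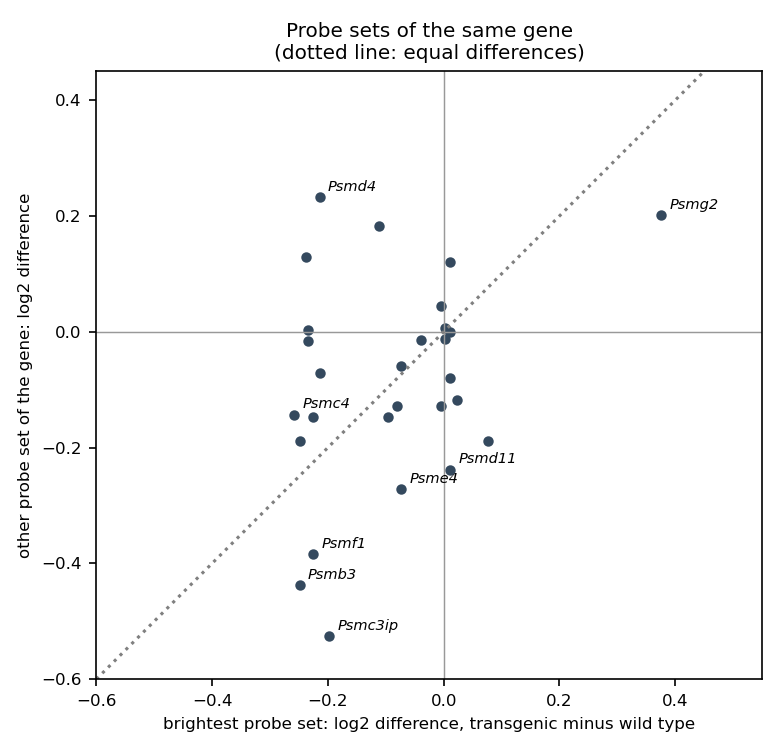
Log2 difference of transgenic minus wild type for the brightest probe set of a gene (horizontal axis) and for each further probe set above the median level (vertical axis), 28 points from 19 genes. Points in the lower left, such as Psmb3 at -0.25 and -0.44, were below 0 in each, and Psmd4 has one point with a positive vertical value of 0.23.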

How the data were processed

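The 6 arrays were assigned to genotypes by their titles. Total RNA had been isolated with a GenElute kit and labelled by IVT, per the labels' protocols. The deposited table holds log2 values, read as such from their range of 2.68 to 14.8. The authors' summary method is not given in the sources used here. The 64 control probe sets were set aside. Array upper quartiles differed by 0.12, above a limit of 0.1, and the remaining 45037 probe sets were quantile normalised (limma 3.58.1, R 4.3.3). Symbols were updated through RefSeq (GRCm38.p6). Each gene was represented by its brightest probe set with 1 symbol, averaged over all arrays. Of the 49 genes 46 reached the median level, and no filter was applied. Genotypes were compared with limma's lmFit and eBayes, with Benjamini-Hochberg adjustment over 18193 genes and a threshold of 0.05. The prior had 3.8 degrees of freedom. The fit was tested on simulated data. Promoter windows came from RefSeq. Alternatives covered normalization, dim probe sets, other probe sets, variance models, a replicate block and each array left out. Every gene of the symbol rule is named. From other lists the called genes and up to 4 of lowest p are named, with exceptions marked. Genes and lists were chosen with earlier results of these data known.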

Additional observations from a re-analysis of the deposited data

How the results depend on the processing

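Psmg1 was lower in transgenic lenses under every setting run, with a difference of -0.51 to -0.35. Its groups do not overlap, so its sign could not turn when 1 array was left out. Nor could it turn in settings that reuse the values of its single probe set. Of the 49 genes Psmg1 alone passed in the report. With values as deposited or with arrays shifted to a common median 2 were called (Psmc1 and Psmg1). Probe sets averaged within a gene also gave 2 calls (Psmb5 and Psmg1). Trended and robust variances called 5 (Psmb5, Psmb6, Psmc1, Psmd10 and Psmg1) and array weights 4 (the same without Psmb6). With 1 array left out, 0 were called, and 226 to 574 of all genes were called, against 827 with all arrays. Array weights called 1389 of all genes. Same-numbered arrays of both genotypes did not deviate together (correlations of -0.052, 0.084 and 0.028), so the numbers were not taken to pair samples. With the replicate block, 223 of all genes and 0 of the 49 were called. A common median moved the share of calls that were higher to 27.4% from 42.6%.

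Class medians moved as follows. With a common median they were -0.14 (20S alpha), -0.28 (20S beta), 0.057 (immunoproteasome), -0.22 (19S ATPase) and -0.17 (19S non-ATPase). The immunoproteasome median was 0.062 without dim probe sets and 0.056 to 0.16 with 1 array left out. The 20S beta median was -0.27 to -0.18 with 1 array left out, and the 19S ATPase median was -0.075 with the second brightest probe set. The 19S non-ATPase median was -0.015 with the second brightest probe set, -0.027 with probe sets averaged and -0.16 to -0.016 with 1 array left out. The 20S alpha median was -0.100 as deposited, -0.013 with the second brightest probe set and -0.0015 without W1.

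None of the genes that turned sign was called in the report. As deposited, Psma4 was -0.048, Psma6 -0.015, Psmd3 -0.060 and Psmd11 -0.024. With a common median, Psma4 was -0.084, Psma6 -0.052, Psmb4 -0.032, Psmd3 -0.097, Psmd11 -0.060 and Psme3ip1 -0.0096. With the mean of probe sets, Psma1 was 0.014, Psma6 -0.056, Psmb4 -0.047, Psmc2 -0.053 and Psmc6 0.041. With the second brightest probe set, Psma1 was 0.069, Psma3 0.0097, Psma6 -0.013, Psmb4 -0.12, Psmc1 0.12, Psmc2 -0.19, Psmc6 0.18, Psmd7 0.17, Psmd9 0.13 and Psmd11 -0.080. With array weights Psmd3 was -0.00056. With 1 array left out the range was -0.14 to 0.084 for Psma1, -0.12 to 0.025 for Psma2, -0.039 to 0.056 for Psma4, -0.036 to 0.042 for Psma6, -0.022 to 0.12 for Psma8, -0.050 to 0.019 for Psmb1, -0.051 to 0.031 for Psmb8, -0.027 to 0.026 for Psmc3, -0.016 to 0.057 for Psmd3, -0.026 to 0.068 for Psmd11 and -0.072 to 0.0050 for Psmg4. The cause was not tested. The number of arrays limits the precision.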
